A study of Mus musculus with 23 samples.

Results

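The genes described here encode class 3 semaphorins and the receptors that bind them: the secreted ligands Sema3a, Sema3c, Sema3d, Sema3e, Sema3f and Sema3g, the neuropilins Nrp1 and Nrp2, and plexin D1 (Plxnd1). These 9 genes were taken by symbol from 24704 named genes, and each was measured by 1 probe set. The set was selected on the levels of Sema3c and Sema3e, whose differences between plasma groups were seen in an earlier analysis of the same arrays. The differences between plasma groups of all 9 genes are therefore given as a description.

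The cells were primary endothelial cells of the mouse aorta (MAOEC), the cells that line the vessel, bought as a culture and grown to confluence. For 48 h the fetal calf serum (FCS) of their medium was then replaced by 10% mouse plasma, and RNA was hybridised to Affymetrix arrays. The plasma donors were wildtype mice (6 arrays), mice without apolipoprotein E (ApoE-KO, 5 arrays), and mice that also lacked Stabilin-1 (ApoE-Stab1-KO, 6 arrays) or Stabilin-2 (ApoE-Stab2-KO, 6 arrays), which are scavenger receptors of sinusoidal endothelium. Apolipoprotein E is the protein through which lipoprotein remnants are cleared from blood. The labels give the strain C57BL/6J for every sample and no age of the donors. The genotypes are those of the donors, and the cells were of 1 kind in all 4 groups. Donors of the 3 ApoE-deficient plasmas had eaten a Western diet for 8 weeks. What the wildtype donors ate is not in the labels, and in comparisons with their plasma the effect of genotype and that of diet cannot be told apart. The labels do not say whether replicates were separate cultures or separate plasma donors, and the errors below measure the spread between these arrays, which may be technical.

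Class 3 semaphorins are secreted guidance proteins, first known for turning growing axons away. Most of them bind a neuropilin, which holds the ligand but has only a short tail inside the cell, and a plexin in the same complex passes the signal on to small GTPases and to the attachment of the cell to its matrix. Sema3e is the exception, since it binds plexin D1 directly, and in blood vessels this pair restrains and shapes the growth of sprouts. Neuropilins are also coreceptors of vascular endothelial growth factors, so semaphorins and VEGF meet at the same cell surface protein.

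The promoters of 3 genes are shown because Sema3c and Sema3e were both higher with ApoE-deficient plasma and Plxnd1, the receptor of Sema3e, had the largest difference in the other direction among the receptor genes. The windows are the 250 bases before the gene start in the RefSeq table for GRCm38.p6, written 5′ to 3′ on the strand of the gene. They lie at chr5:17574566-17574815 on the plus strand for Sema3c, at chr5:14025026-14025275 on the plus strand for Sema3e, and at chr6:115995006-115995255 on the minus strand for Plxnd1. Capitals mark matches to the GC box GGGCGG or its reverse complement, and to ACGTG, the core of the site that hypoxia-inducible factors bind.
Sema3c: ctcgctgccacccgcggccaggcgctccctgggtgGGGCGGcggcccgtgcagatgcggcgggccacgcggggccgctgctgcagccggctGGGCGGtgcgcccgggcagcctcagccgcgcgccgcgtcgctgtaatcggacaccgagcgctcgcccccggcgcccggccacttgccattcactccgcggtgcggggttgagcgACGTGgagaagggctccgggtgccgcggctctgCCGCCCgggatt
Sema3e: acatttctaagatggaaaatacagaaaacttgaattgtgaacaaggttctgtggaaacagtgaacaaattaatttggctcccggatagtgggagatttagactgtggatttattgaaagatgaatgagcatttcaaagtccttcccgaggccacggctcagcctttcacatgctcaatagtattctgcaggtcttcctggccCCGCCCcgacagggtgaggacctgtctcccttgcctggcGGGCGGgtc
Plxnd1: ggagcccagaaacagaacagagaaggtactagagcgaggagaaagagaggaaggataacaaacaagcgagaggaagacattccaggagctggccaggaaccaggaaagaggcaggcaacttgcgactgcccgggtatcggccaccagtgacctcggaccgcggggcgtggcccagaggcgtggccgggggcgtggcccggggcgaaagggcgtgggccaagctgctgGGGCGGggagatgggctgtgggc
The Sema3c and Sema3e windows differed in composition. The Sema3c window was 78.4% G and C with 39 CpG dinucleotides, and 98.1% of the 32851 windows in the table had a lower share of G and C. The Sema3e window was 48.0% G and C with 7 CpG dinucleotides, and 33.8% of all windows lay lower. The Plxnd1 window, at 64.8% G and C with 16 CpG dinucleotides, lay between them.

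Both semaphorin windows held GC boxes, which bind factors of the Sp family. In the Sema3c window they began 215, 159 and 12 bases before the start, and the ACGTG match began 45 bases before it. In the Sema3e window they began 48 and 9 bases before the start, and in the Plxnd1 window the 1 match began 23 bases before it. GGGCGG occurred in 32.7% of all windows and ACGTG in 16.6%, with both strands searched here and below. None of these 3 windows held CCAAT (33.8% of all windows), TATAAA (12.4%), the E-box CACGTG, which contains ACGTG (6.02%), TCACNCCAC, a core of sterol response elements (1.05%), or TGATGNAA, a core of amino acid response elements (3.45%). Of the other 6 genes, 5 had a window in the table. Those of Sema3g and Nrp1 held 1 GC box each and that of Nrp2 held 5, at 60.4%, 64.4% and 72.4% G and C. Those of Sema3a and Sema3d held none, at 40.8% and 46.8% G and C, and the Sema3d window had 1 CCAAT match. A match is a description of letters and was not set against binding data.

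The values are log2 levels from RMA, in which a difference of 1 is a factor of 2, and they ranged from 2.52 to 13.9 over the 23 arrays, with correlations between arrays of 0.992 to 0.997 across genes. All 8 endothelial markers on a fixed list, such as Pecam1 and Cdh5, lay above the level of 4.09 that 95% of 1073 olfactory receptor probe sets did not reach, a reference for genes silent in such cells. Of 4 lymphatic markers 3 lay above that level, Lyve1 at 12.75, Flt4 at 9.64 and Pdpn at 5.02 (means over 23 arrays), while Prox1, which defines lymphatic identity, was at 3.27, below that level. Above it lay 2 of 5 smooth muscle markers (Acta2 and Smtn), 2 of 5 fibroblast markers (Col1a1 and Pdgfra), 1 of 4 macrophage markers (Cd68) and 1 of 4 neuronal markers (Rbfox3). No marker of these lists was called in any of the 6 comparisons (limma, Benjamini-Hochberg adjusted p under 0.05 over 24704 genes). The mean level of the endothelial list lay between 11.44 and 11.49 on the wildtype arrays and between 11.32 and 11.48 on the ApoE-KO arrays. Pdgfra was 0.27, 0.27 and 0.39 higher in mean with the ApoE-KO, the ApoE-Stab1-KO and the ApoE-Stab2-KO plasma than with wildtype plasma, and its part in the results below was not tested. The other fibroblast markers did not follow it: Col1a1 differed by -0.04, 0.09 and -0.08, and Col1a2, Dcn and Lum, below that level, by at most 0.07 in size. The mean level of the list of 5 ran from 4.11 to 4.25 on the wildtype arrays and from 4.18 to 4.35 on the others. One array, ApoE-Stab1-KO replicate 1, stood apart from the rest, with the lowest median correlation with other arrays (0.9938, next 0.9954) and the lowest array weight in limma (0.377, next 0.617). In bulk RNA, fewer cells of a type and less RNA per cell cannot be told apart.

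Sema3c had the largest differences of the 9 genes. It encodes a ligand of both neuropilins that guides migrating neural crest and endothelial cells. Its level on the 6 wildtype arrays ran from 7.28 through a median of 7.42 to 7.57. On the 5 ApoE-KO arrays it was 8.15, 8.16, 8.34, 8.15 and 7.98. With ApoE-Stab1-KO plasma the lowest, median and highest arrays were at 7.63, 7.95 and 8.13, and with ApoE-Stab2-KO plasma at 7.92, 8.05 and 8.16. All 17 arrays with ApoE-deficient plasma thus lay above all 6 with wildtype plasma, a pattern that 25 genes, or 0.101% of those on the array, showed. The difference from wildtype was 0.74 ± 0.08 (SE) with ApoE-KO plasma, which is 1.67-fold, 0.50 ± 0.08 with ApoE-Stab1-KO plasma, 1.42-fold, and 0.62 ± 0.08 with ApoE-Stab2-KO plasma, 1.54-fold.

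Among the 3 ApoE-deficient plasmas, mean Sema3c was highest with ApoE-KO, next with ApoE-Stab2-KO and lowest with ApoE-Stab1-KO. The ApoE-Stab1-KO arrays were the most scattered, with a SD of 0.21 (n = 6) against 0.13 (n = 5) with ApoE-KO, 0.09 (n = 6) with ApoE-Stab2-KO and 0.11 (n = 6) with wildtype plasma. ApoE-Stab1-KO replicates 5 and 2, at 7.63 and 7.73, were the arrays nearest to the wildtype ones. The difference of ApoE-Stab1-KO from ApoE-KO was -0.23 ± 0.08, with a 95% interval from -0.41 to -0.06. Neighbouring groups in that order were closer, at -0.12 (-0.29 to 0.05) for ApoE-Stab2-KO minus ApoE-KO and 0.11 (-0.05 to 0.28) for ApoE-Stab2-KO minus ApoE-Stab1-KO. The arrays of these 3 groups overlapped, and Sema3c was called in none of the 3 comparisons.

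Sema3e, the ligand that binds plexin D1 without a neuropilin, had a step of nearly equal height with each ApoE-deficient plasma. Its level was 7.79 at the lowest, 7.90 at the median and 8.03 at the highest of the 6 wildtype arrays. The 5 ApoE-KO arrays read 8.49, 8.43, 8.40, 8.48 and 8.27. The ApoE-Stab1-KO arrays ran from 8.17 through a median of 8.45 to 8.53, and the ApoE-Stab2-KO arrays from 8.32 through 8.39 to 8.48. Again all 17 arrays with ApoE-deficient plasma were above all 6 with wildtype plasma. The differences from wildtype were 0.50, 0.49 and 0.48 (SE 0.06 each) for ApoE-KO, for ApoE-Stab1-KO and for ApoE-Stab2-KO, the first being 1.41-fold. Between the ApoE-deficient plasmas the differences were -0.01 for ApoE-Stab1-KO minus ApoE-KO (95% interval -0.14 to 0.12), -0.02 for ApoE-Stab2-KO minus ApoE-KO (-0.14 to 0.11) and -0.01 for ApoE-Stab2-KO minus ApoE-Stab1-KO (-0.13 to 0.11). Together these intervals reach from -0.14 to 0.12, and differences inside them could not be resolved here.

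**Figure D1:**
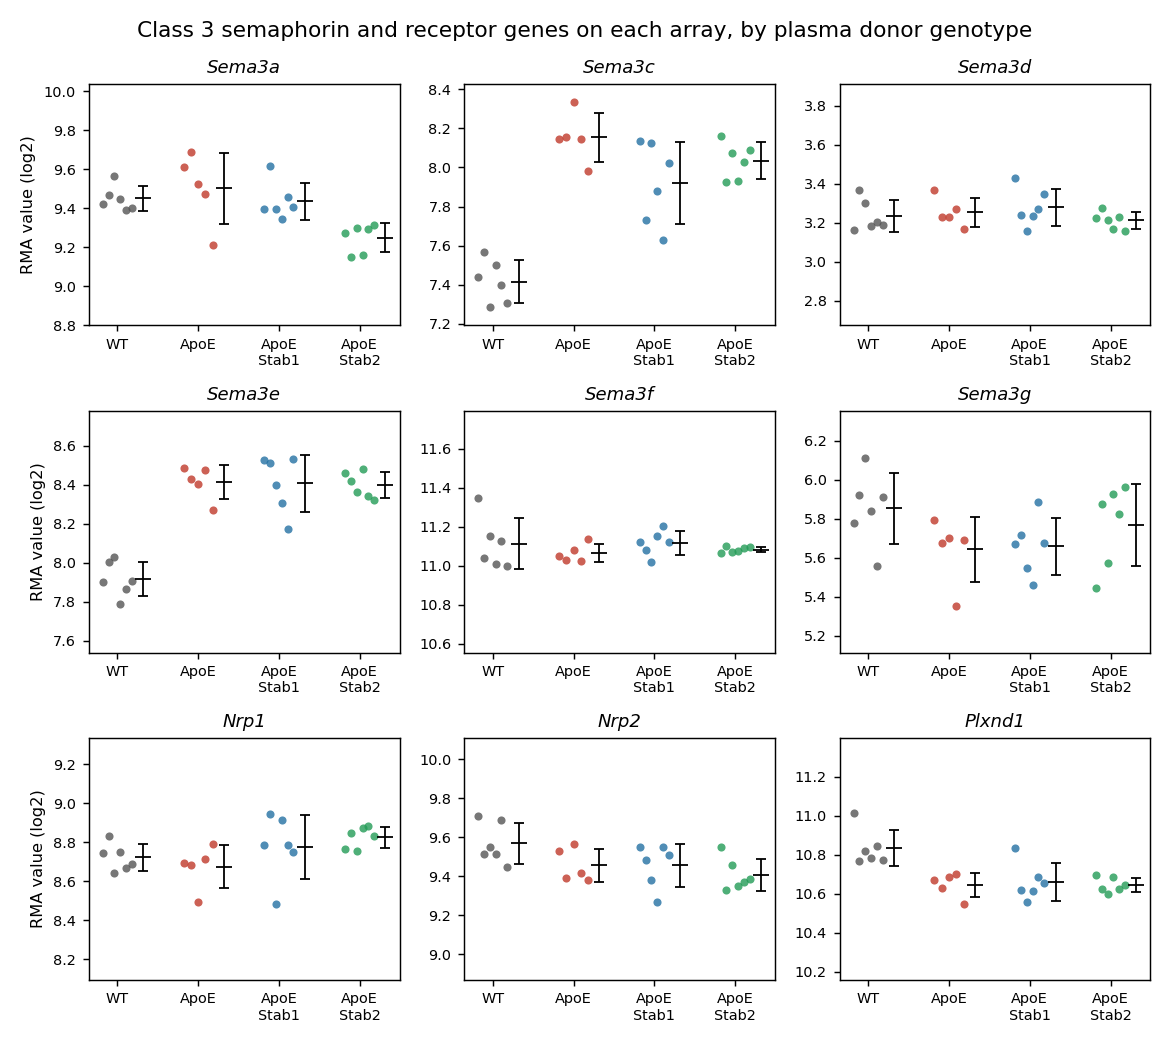
The log2 RMA level (vertical axis, the same span of values in each panel) of each of the 9 genes on each array, as 1 point per array, by plasma donor genotype (WT wildtype, n = 6; ApoE, ApoE-KO, n = 5; ApoE Stab1 and ApoE Stab2, the double knockouts, n = 6 each), with the mean and SD beside the points. Sema3c and Sema3e separate the 6 wildtype arrays from the other 17, while the remaining genes overlap between wildtype and at least 1 other group.

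Sema3a, the classic axon-repelling ligand that signals through Nrp1, differed in another way, being lowest with ApoE-Stab2-KO plasma. Its level there ran from 9.15 through a median of 9.29 to 9.32. The wildtype arrays lay between 9.39 and 9.57 with a median of 9.44, and the ApoE-Stab1-KO arrays between 9.35 and 9.62 with a median of 9.40. The ApoE-KO arrays were at 9.61, 9.69, 9.53, 9.47 and 9.21, so that replicate 5 lay inside the ApoE-Stab2-KO range and the other 4 above it. The ApoE-Stab2-KO arrays were all below the wildtype arrays, as for 0.514% of genes on the array, and all below the ApoE-Stab1-KO arrays, as for 0.381%. The difference of ApoE-Stab2-KO plasma was -0.20 ± 0.06 (SE) from wildtype, -0.25 ± 0.07 from ApoE-KO and -0.19 ± 0.06 from ApoE-Stab1-KO. Sema3a was called in none of these comparisons. Without ApoE-KO replicate 5, the difference of ApoE-Stab2-KO from ApoE-KO was -0.33 and was called (limma, Benjamini-Hochberg adjusted p = 0.0279), as was the F-test of Sema3a (0.0205). Without ApoE-KO replicate 2 that difference was -0.21 and was not called (limma, adjusted p = 0.496).

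Sema3g, a ligand made mainly by endothelial cells and known to bind Nrp2, had a wide spread in every group. The wildtype arrays ran from 5.56 through a median of 5.88 to 6.11, and the ApoE-KO arrays were at 5.79, 5.67, 5.70, 5.35 and 5.69. The ApoE-Stab1-KO arrays ran from 5.46 through 5.67 to 5.89, and the ApoE-Stab2-KO arrays from 5.45 through 5.85 to 5.96. All groups overlapped. Differences from wildtype were -0.21 ± 0.10 (SE) with ApoE-KO, -0.19 ± 0.10 with ApoE-Stab1-KO and -0.09 ± 0.10 with ApoE-Stab2-KO plasma, none of them called.

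Sema3f, an Nrp2 ligand that holds back vessel and lymphatic growth, was almost level across the groups. Its wildtype arrays ran from 11.00 through a median of 11.08 to 11.35, and every one of the 17 other arrays lay inside that range, between 11.02 and 11.20. The SD over the 6 ApoE-Stab2-KO arrays was 0.01, against 0.13 over the 6 wildtype arrays. The differences from wildtype were -0.05, 0.00 and -0.03 for ApoE-KO, for ApoE-Stab1-KO and for ApoE-Stab2-KO, with 95% intervals that together reached from -0.15 to 0.11. Sema3d lay at background. Its levels ran from 3.16 to 3.43 over all 23 arrays, and 260 of 1073 olfactory receptor probe sets (24.2%) had a higher mean, so no difference in this gene could be measured. For Sema3g that share was 0.652%, and for the other 7 genes it was 0.

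Plxnd1, the receptor of Sema3e, was lower with each ApoE-deficient plasma. The wildtype arrays ran from 10.77 through a median of 10.80 to 11.01. The ApoE-KO arrays were at 10.67, 10.63, 10.68, 10.70 and 10.54, the ApoE-Stab1-KO arrays ran from 10.55 through 10.64 to 10.84, and the ApoE-Stab2-KO arrays from 10.60 through 10.63 to 10.69. In all, 16 of the 17 arrays with ApoE-deficient plasma lay below every wildtype array, and 0.158% of genes had at least as many there. The exception was ApoE-Stab1-KO replicate 1, at 10.84, the array that stood apart. The wildtype arrays did not overlap those with ApoE-KO plasma or with ApoE-Stab2-KO plasma. In those comparisons 0.891% and 0.514% of genes were lower without overlap.

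The differences of Plxnd1 from wildtype were small and alike in size, at -0.19, -0.17 and -0.19 (SE 0.05 each) for ApoE-KO, for ApoE-Stab1-KO and for ApoE-Stab2-KO. None was called (limma, Benjamini-Hochberg adjusted p = 0.11, 0.13 and 0.14). Without ApoE-Stab1-KO replicate 1 the difference of ApoE-Stab1-KO from wildtype was -0.21 and was called (adjusted p = 0.0369), as was the F-test (0.0344). Without wildtype replicate 1, the highest array of its group, the ApoE-Stab1-KO difference was -0.14 (limma, adjusted p = 0.282). The ApoE-Stab2-KO difference was then -0.15 (0.313), and neither was called. Between the ApoE-deficient plasmas Plxnd1 differed by 0.02 at most, with 95% intervals that together ran from -0.12 to 0.12.

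Nrp2, the neuropilin of Sema3f and Sema3g and a coreceptor of Vegfc, lay in the same direction as Plxnd1 with more overlap. The wildtype arrays ran from 9.45 through a median of 9.53 to 9.71, and the ApoE-KO arrays were at 9.53, 9.39, 9.56, 9.42 and 9.38. The ApoE-Stab1-KO arrays ran from 9.27 through 9.50 to 9.55, and the ApoE-Stab2-KO arrays from 9.33 through 9.38 to 9.55. Of the 17 arrays with ApoE-deficient plasma, 9 lay below every wildtype array, and the share of all genes with as many was not counted. The differences were -0.11, -0.11 and -0.16 (SE 0.06 each) from wildtype, and none was called. Across the 23 arrays Nrp2 and Plxnd1 had a Pearson's r of 0.76, and of 0.65 after the group means were taken out. Wildtype replicate 1 was the highest of its group for Plxnd1, Nrp2 and Sema3f.

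Nrp1, the neuropilin of Sema3a and a coreceptor of Vegfa, did not share that direction. Its wildtype arrays ran from 8.64 through a median of 8.72 to 8.83, and its ApoE-KO arrays were at 8.69, 8.68, 8.50, 8.71 and 8.79. The ApoE-Stab1-KO arrays ran from 8.48 through 8.79 to 8.95, the widest range of the 4 groups, and the ApoE-Stab2-KO arrays from 8.75 through 8.84 to 8.88. All groups overlapped. The differences from wildtype were -0.05, 0.05 and 0.10 (SE 0.07, 0.06 and 0.06), and ApoE-Stab2-KO plasma was 0.15 ± 0.07 above ApoE-KO plasma, none of them called.

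**Figure D2:**
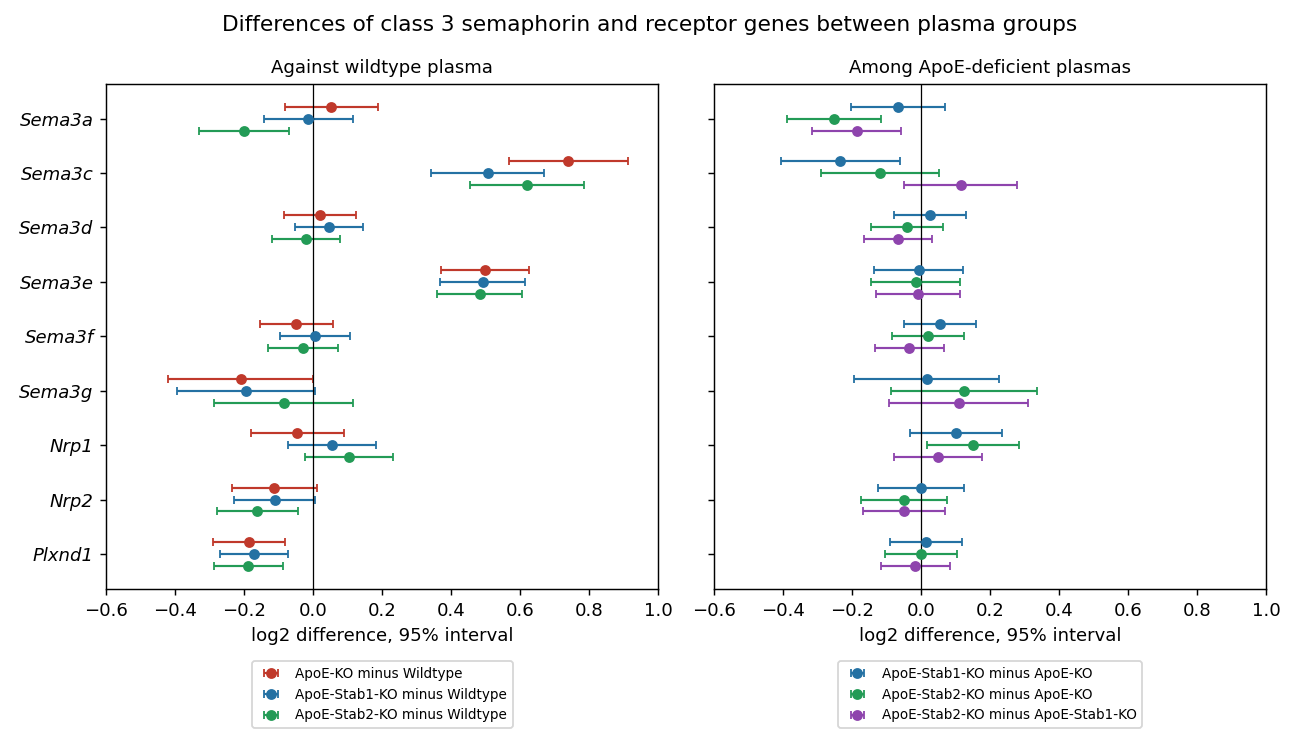
The log2 difference (horizontal axis) of each of the 9 genes, with its 95% interval from the fit over all 23 arrays, for the 3 comparisons with wildtype plasma (left) and the 3 among ApoE-deficient plasmas (right). Sema3c and Sema3e lie to the right of 0 in each comparison with wildtype, Plxnd1 lies to the left by less than 0.20, and Sema3a lies to the left in the comparisons of ApoE-Stab2-KO plasma.

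Counted over the 9 genes, Sema3c and Sema3e were called higher in each comparison with wildtype plasma, and none was called lower. With only the 2 groups in the fit, Sema3c was not called for ApoE-Stab1-KO (limma, Benjamini-Hochberg adjusted p = 0.0537). Without ApoE-Stab1-KO replicate 1, the ApoE-Stab1-KO difference from wildtype was 0.46 for Sema3c and 0.47 for Sema3e, and both were called. The 3 comparisons share the wildtype arrays. Of all genes tested, 0.34% were called higher with ApoE-KO plasma, 0.174% with ApoE-Stab1-KO plasma and 0.113% with ApoE-Stab2-KO plasma, and because these contrasts chose the genes nothing is read from the counts. Called lower were 0.19%, 0.19% and 0.0648% of all genes. At an unadjusted p under 0.05 there were 4, 3 and 5 of the 9 genes, beside 10.5%, 11.3% and 8.49% of all genes. The moderated F-test over the 4 groups called the same 2 genes, against 0.546% of all genes, and 4 of the 9 had an unadjusted p under 0.05, against 11.9% of all genes. In the comparisons among ApoE-deficient plasmas limma called 0 of the 9. For ApoE-Stab1-KO minus ApoE-KO 1 gene had an unadjusted p under 0.05, for ApoE-Stab2-KO minus ApoE-KO 2 did and for ApoE-Stab2-KO minus ApoE-Stab1-KO 1 did. Of all genes, 0.00405%, 0.0243% and 0.0486% were called in those comparisons, and 5.57%, 8.36% and 11% had an unadjusted p under 0.05. The median difference over the 9 genes was -0.05, 0.00 and -0.03 against wildtype for ApoE-KO, for ApoE-Stab1-KO and for ApoE-Stab2-KO, where the median over all genes was 0.00 each time. The median size of the difference, without its sign, was 0.11, 0.11 and 0.16 for the 9 genes and 0.06, 0.06 and 0.05 for all genes. The 9 genes include Sema3c and Sema3e, on which the set was selected, and all genes include dim ones. Nothing is read from these sizes either.

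Sema3c and Sema3e lay high and low together between the groups, and less so within them. Their Pearson's r was 0.86 over the 23 arrays (Spearman's rho 0.68), where the arrays form a wildtype cluster and an ApoE-deficient cluster, and 0.33 after the group means were taken out. Sema3e and Plxnd1 had an r of -0.62 over the arrays and of 0.27 within groups, so the opposite direction of ligand and receptor lay between wildtype and the other groups and not among arrays of 1 group. ApoE-KO replicate 5 was the lowest of its group for 6 of the 9 genes. All arrays share 1 normalization, and these correlations are descriptions.

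**Figure D3:**
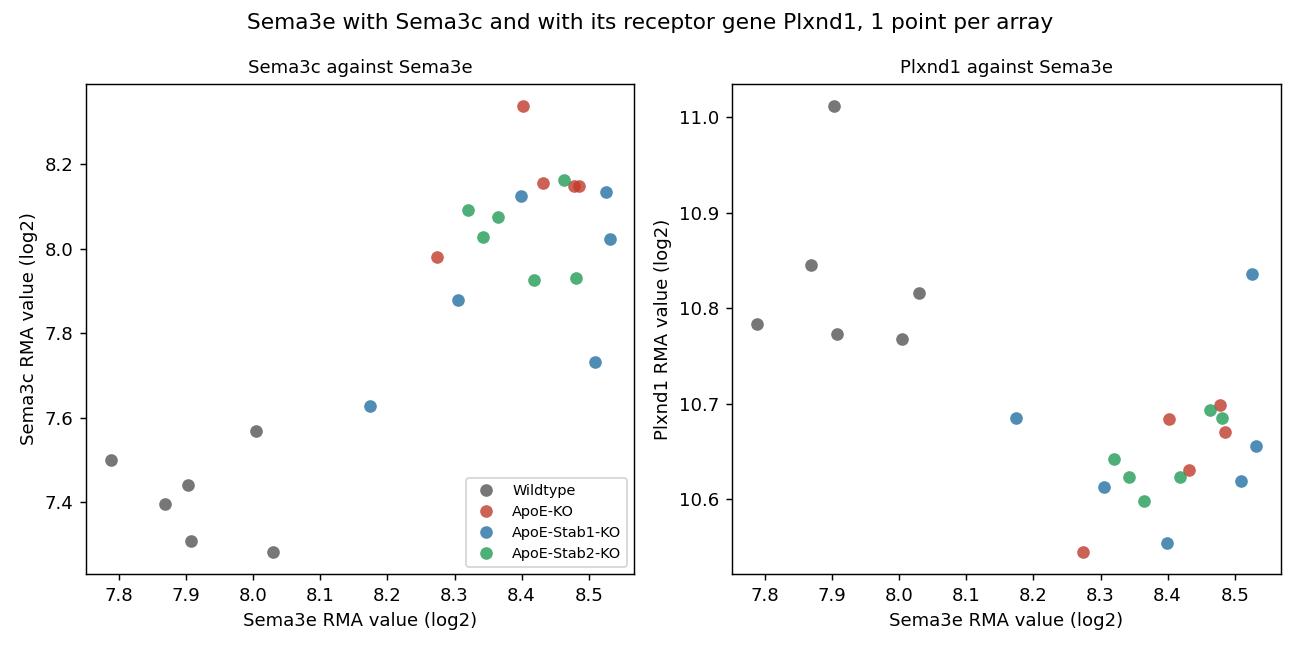
The log2 RMA level of Sema3c (left) and of Plxnd1 (right) against that of Sema3e, 1 point per array, coloured by plasma group (ApoE-KO n = 5, the other groups n = 6 each). The wildtype arrays stand apart at low Sema3e, up to 8.03, with low Sema3c and, except for overlap with ApoE-Stab1-KO replicate 1 at 10.84, high Plxnd1.

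The genes whose levels followed Sema3c most closely, among 17464 protein-coding genes ranked by Pearson's r over the 23 arrays, were Cyp51 (0.89), Msln (0.89), Msmo1 (0.86), Sema3e (0.86), Nrg1 (0.85), Sprr1a (0.85), Acot2 (0.85) and Asns (0.83). Cyp51 and Msmo1 encode enzymes of cholesterol synthesis, Nrg1 a ligand of ErbB receptors and Asns asparagine synthetase. Within groups r ran from 0.24 for Sprr1a and 0.33 for Sema3e to 0.63 for Asns and 0.77 for Msln. The lowest r belonged to Ptprm (-0.88), a receptor phosphatase of endothelial junctions, Mcam (-0.87), an adhesion molecule, and Ldb2 (-0.86). Over all genes searched the median size of r with Sema3c was 0.18.

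Sema3e was followed most closely by Ereg (0.90), Cd36 (0.89), Spin4 (0.88), Dhrs9 (0.88), Cyp1b1 (0.86), Sema3c (0.86), Krt20 (0.85) and Acot2 (0.82). Ereg encodes epiregulin, a ligand of the EGF receptor, and Cd36 a receptor for fatty acids and oxidised lipoproteins. Within groups r ran from 0.28 for Acot2 and 0.33 for Sema3c to 0.65 for Cd36 and 0.69 for Spin4. At the other end were Pdgfb (-0.90), the growth factor that recruits pericytes, Mcam (-0.84) and Cul7 (-0.84), with -0.45, -0.04 and -0.48 within groups. Ranking by the r within groups kept 1 of the 8 genes for Sema3c (Msln) and 0 of the 8 for Sema3e. Membership in the lists thus depended on the differences between plasma groups. The 8 genes of each list had positive r within groups as well. The r that chose them includes the spread within groups, so nothing is read from that sign.

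The wider semaphorin pathway was followed in a list of 69 further genes, all of them measured. Vegfa, the growth factor that competes with Sema3a for Nrp1, rose with each ApoE-deficient plasma, and the other 68 genes were not called in any comparison. Its level was 7.60 at the lowest, 7.72 at the median and 7.77 at the highest of the wildtype arrays. With ApoE-KO plasma these values were 7.83, 7.96 and 8.09, with ApoE-Stab1-KO plasma 7.86, 7.93 and 8.13, and with ApoE-Stab2-KO plasma 7.96, 8.04 and 8.15. All 17 arrays with ApoE-deficient plasma lay above the 6 wildtype arrays, as for 0.101% of genes on the array. The difference was 0.26 ± 0.05 (SE) with ApoE-KO plasma (limma, Benjamini-Hochberg adjusted p = 0.0251), 0.25 ± 0.05 with ApoE-Stab1-KO plasma (0.0264) and 0.35 ± 0.05 with ApoE-Stab2-KO plasma (0.00222). Between the ApoE-deficient plasmas it differed by at most 0.10 and was not called.

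The Vegfa call depended on single arrays for ApoE-KO and ApoE-Stab1-KO plasma. For ApoE-KO it was lost without ApoE-KO replicate 1 (limma, Benjamini-Hochberg adjusted p = 0.0814), 2 (0.0668) or 3 (0.0783), or wildtype replicate 1 (0.0683) or 6 (0.0527). For ApoE-Stab1-KO it was lost without ApoE-Stab1-KO replicate 4 (0.0532) or wildtype replicate 1 (0.077), 4 (0.0575) or 6 (0.0617). The ApoE-Stab2-KO call held in all 23 fits that left out 1 array.

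By role, 0 of 13 semaphorins of other classes, 0 of 8 further plexins, 1 of 14 coreceptors and neuropilin partners (Vegfa), 0 of 25 signalling genes below plexins and 0 of 8 genes of processing and control were called against wildtype plasma, and so was 0 of 1 further class 3 semaphorin, Sema3b. Called lower were 0 of the 69. Of all genes, 0.34%, 0.174% and 0.113% were called higher for ApoE-KO, for ApoE-Stab1-KO and for ApoE-Stab2-KO. Called lower were 0.19%, 0.19% and 0.0648% of them. At such low shares, counts of 0 in lists of this length say little about the pathway. At an unadjusted p under 0.05 there were 16, 10 and 8 of the 69 for ApoE-KO, for ApoE-Stab1-KO and for ApoE-Stab2-KO, which compares with 10.5%, 11.3% and 8.49% of all genes. Among the ApoE-deficient plasmas limma called 0 of the 69, and 3, 5 and 8 had an unadjusted p under 0.05 for ApoE-Stab1-KO minus ApoE-KO, ApoE-Stab2-KO minus ApoE-KO and ApoE-Stab2-KO minus ApoE-Stab1-KO, beside 5.57%, 8.36% and 11% of all genes. Limma called 0.00405%, 0.0243% and 0.0486% of all genes in those 3 comparisons. The median difference of the list from wildtype was -0.01, 0.00 and -0.02. Sema3b had a mean level of 4.08, and 5.13% of the olfactory receptor probe sets lay above it.

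The smallest F-test p-values of the list after Vegfa belonged to Sema5b and Sema6d, both transmembrane semaphorins. Mean Sema5b was 4.18 with wildtype, 4.27 with ApoE-KO, 4.41 with ApoE-Stab1-KO and 4.28 with ApoE-Stab2-KO plasma, and the ApoE-Stab1-KO difference from wildtype was 0.23 ± 0.05 (SE; limma, Benjamini-Hochberg adjusted p = 0.0583). It was called without ApoE-Stab1-KO replicate 1 (0.0396) or wildtype replicate 6 (0.0408). The wildtype mean of Sema5b lay only just above 4.09, the level that 95% of olfactory receptor probe sets did not reach. Differences of this gene are therefore uncertain. Sema6d was 0.18 ± 0.05 lower in mean with ApoE-Stab2-KO than with ApoE-Stab1-KO plasma, at 9.47 against 9.65 (adjusted p = 0.12).

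**Figure D4:**
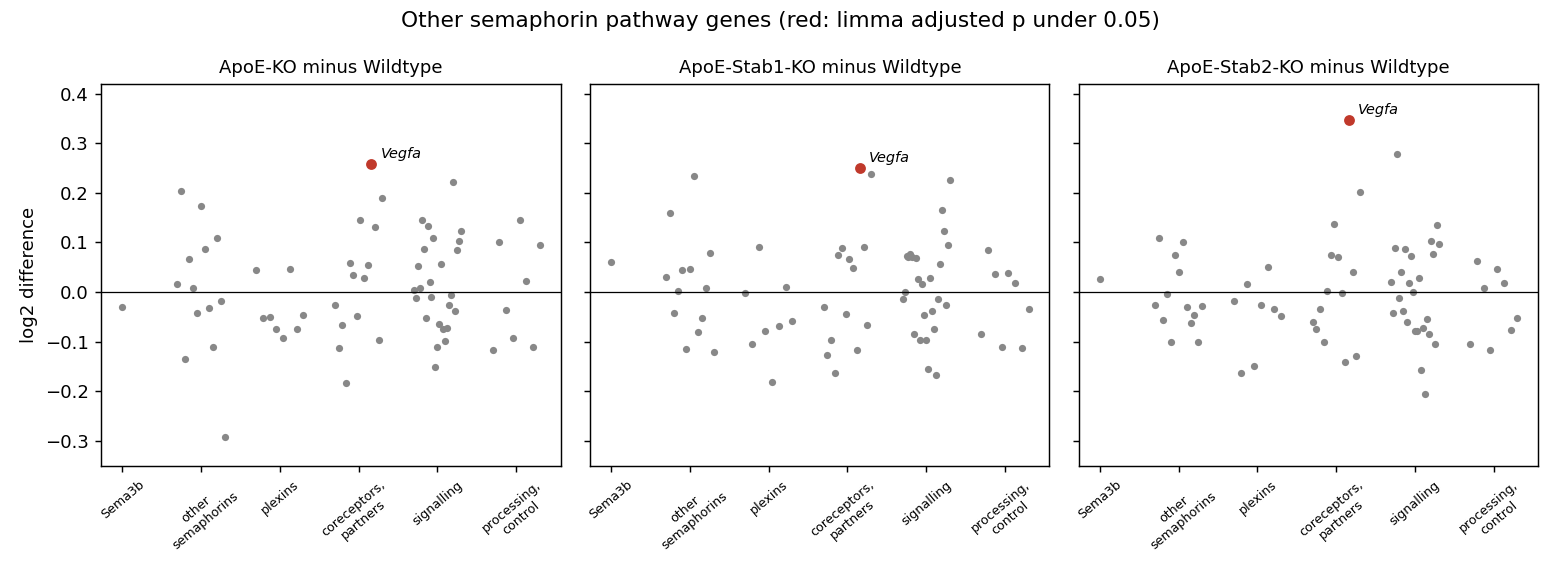
The log2 difference from wildtype plasma (vertical axis) of the 69 further pathway genes, 1 point per gene, by role, for each ApoE-deficient plasma. Vegfa, in red, is the gene with an adjusted p under 0.05 (limma, Benjamini-Hochberg), at 0.26, 0.25 and 0.35.

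Of the 6 semaphorin genes, 4 lie on chromosome 5. Sema3d, Sema3a and Sema3e follow each other there, with only Speer3 between Sema3a and Sema3e among the measured genes counted. Measured genes with Gm, LOC, Mir, Olfr, Vmn or clone symbols, or with symbols ending in Rik, were passed over in this order. None of the 5 nearest counted genes on either side of Sema3e was called. Against wildtype plasma, Sema3a differed by 0.05, -0.01 and -0.20 and Speer3 by -0.13, -0.03 and 0.02 for ApoE-KO, for ApoE-Stab1-KO and for ApoE-Stab2-KO. The Speer genes form a family of near-identical copies, so their values are uncertain. Pclo, on the other side of Sema3e, differed by -0.01, -0.06 and 0.05. Sema3c stands apart from these on the same chromosome, with Speer4f1 on one side and Cd36 on the other.

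Cd36, which encodes the fatty acid receptor, rose beside Sema3c. Its level ran from 10.04 through a median of 10.12 to 10.23 on the wildtype arrays, from 10.24 through 10.50 to 10.56 with ApoE-KO plasma, from 10.27 through 10.57 to 10.75 with ApoE-Stab1-KO plasma and from 10.44 through 10.47 to 10.59 with ApoE-Stab2-KO plasma. The wildtype arrays lay below all others, as for 0.101% of genes on the array. The differences were 0.32 ± 0.07 (SE; limma, Benjamini-Hochberg adjusted p = 0.0487), 0.40 ± 0.07 (0.00779) and 0.36 ± 0.07 (0.0244). Leaving out 1 array ended the ApoE-KO call for 18 of the 23 arrays (adjusted p from 0.0561 to 0.151), all but ApoE-KO replicate 5 and ApoE-Stab1-KO replicates 1, 2, 3 and 5. It ended the ApoE-Stab2-KO call for 9 of them (0.0529 to 0.0738), which were ApoE-Stab2-KO replicates 3 to 6 and wildtype replicates 1, 2, 4, 5 and 6. It ended the ApoE-Stab1-KO call for none. Speer4f1 on the other side of Sema3c differed by -0.07, 0.04 and 0.07 and was not called.

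The 5 nearest counted genes were taken on each side of each of the 9 genes, with 4 on the far side of Nrp1. They gave 69 distinct neighbours outside the set, among them 2610044O15Rik8 near Nrp1, whose symbol does not end in Rik. With ApoE-KO plasma 1 was called higher (Cd36) and 0 lower, with ApoE-Stab1-KO plasma 1 higher (Cd36) and 1 lower, and with ApoE-Stab2-KO plasma 1 higher (Cd36) and 0 lower, while 6, 4 and 5 of the 69 had an unadjusted p under 0.05, beside 10.5%, 11.3% and 8.49% of all genes. Of all genes, 0.34%, 0.174% and 0.113% were called higher in these comparisons, and 0.19%, 0.19% and 0.0648% lower. The neighbour called lower was Snora7a, a small nucleolar RNA gene near Plxnd1, at -0.71 ± 0.14 (SE; limma, Benjamini-Hochberg adjusted p = 0.0212). That call ended without ApoE-Stab1-KO replicate 3 (0.0618) or wildtype replicate 2 (0.0532). Among the ApoE-deficient plasmas limma called 0 neighbours, with 3, 3 and 5 at an unadjusted p under 0.05, beside 5.57%, 8.36% and 11% of all genes. Called there were 0.00405%, 0.0243% and 0.0486% of all genes. Stab1, the gene that the donors of 1 plasma lacked, is itself a neighbour of Sema3g. In these cells Stab1 differed from wildtype plasma by -0.19, -0.10 and -0.09 without being called.

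**Figure D5:**
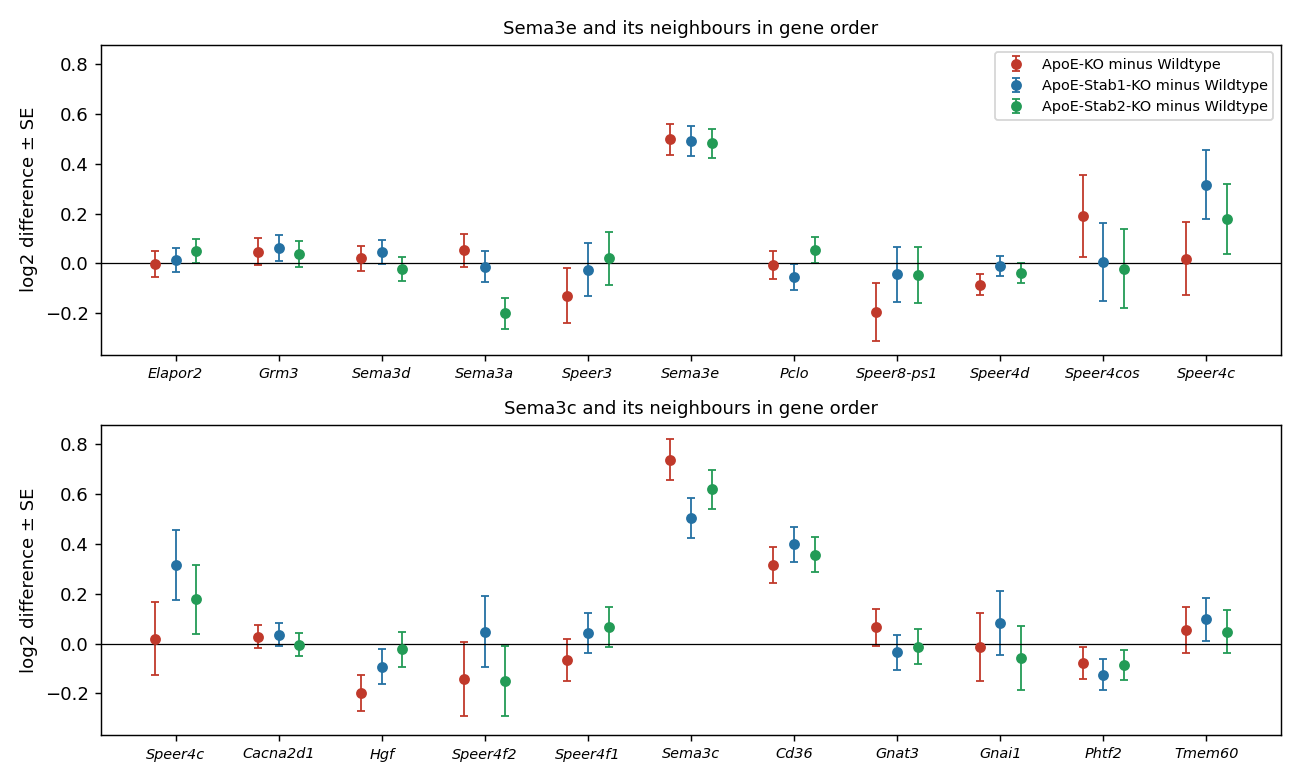
The log2 difference from wildtype plasma (vertical axis, with its SE) of Sema3e (upper panel) and Sema3c (lower panel), for each ApoE-deficient plasma. The 5 nearest counted genes on each side are shown with them, in order along the chromosome and not to scale. Measured genes with Gm, LOC, Mir, Olfr, Vmn or clone symbols, or with symbols ending in Rik, were passed over. Sema3e, at 0.48 to 0.50, lies above the neighbours shown, none of which was called, and Cd36 lies beside Sema3c at 0.32 to 0.40.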

How the data were processed

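The authors deposited 1 table of log2 values for 23 arrays, made with RMA per the submitters' processing notes, a method that adjusts for background, gives every array 1 distribution of values and joins probes into sets. A version of RMA and an annotation of the probes were not given in the sources used here. Groups came from the labels. Of 25428 probe sets, 24705 had 1 gene symbol and 723 had none and were left out. The brighter of 2 probe sets was kept for the 1 repeated symbol, which left 24704 genes, with no filter on dim ones. Because the arrays share 1 distribution, a common shift of every gene cannot be measured, and the number of arrays limits the precision.

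Differences came from limma 3.58.1 in R 4.3.3 (lmFit and eBayes, 4 group means over all 23 arrays, 19 residual and 4.19 prior degrees of freedom), with Benjamini-Hochberg adjustment over all 24704 genes in each comparison and in the F-test. A gene is called where its adjusted p is under 0.05. The genes, the pathway, neighbour and marker lists and the tests were chosen with earlier results of these data known. Named besides the 9 genes are pathway genes and neighbours that were called, the pathway genes with the smallest F-test p up to 3 in all, and the 8 most and 3 least like Sema3c and Sema3e by Pearson's r. Sema3b, Speer3, Speer4f1, Pclo, Stab1, the markers and Pdgfra's differences were named outside that rule. Neighbours are by order in the RefSeq table for GRCm38.p6. Gm, LOC, Mir, Olfr, Vmn and clone symbols and those ending in Rik were passed over. The ranking by likeness passed over the same symbols. A genome build for the array was not given in the sources used here, and only promoter windows carry coordinates.

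Replicate numbers were not used to pair the arrays in the main fit. Over all genes, the deviations of same-numbered arrays from their group means had a mean correlation between -0.05 and 0.03 for each number. A mean over all genes cannot exclude pairing that touches some of them. Alternatives were centring arrays on their median, quantile normalization again, the replicate block, array weights, eBayes with trend and robust settings, genes above the median level, only the 2 groups compared, a fold of 1.5 as well, each probe set as its own feature, other likeness measures and each array left out in turn. Promoters were searched in Python 3.11.15, and matplotlib 3.10.9 drew the plots.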

Additional observations from a re-analysis of the deposited data

Results flagged for a closer look

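In 5 of the 56 gene and group pairs checked, 1 array stood far from the rest of its group, a rule that flags about 5% of groups by chance. Sema3g on ApoE-KO replicate 4 was the lowest of its group at 5.35, with the next array at 5.67. Plxnd1 on wildtype replicate 1 was the highest of its group at 11.01, with the next at 10.85. Sema5b was lowest of the ApoE-KO arrays on replicate 4, at 4.17 against 4.28 for the next, and highest of the ApoE-Stab1-KO arrays on replicate 6, at 4.60 against 4.41. Cd36 on ApoE-Stab2-KO replicate 4 was the highest of its group at 10.59, with the next at 10.50.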

How the results depend on the processing

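All 270 differences of the 9 genes under the alternatives lay within 1 SD of the reported value, moving by at most 0.04. So did the 621 with 1 array left out, moving by at most 0.07. That outcome was largely fixed in advance, and nothing is read from it. Each gene had 1 probe set, and the arrays already shared 1 distribution. Leaving out 1 array moves a group mean by only part of the SD of that group. With the replicate block, the pathway genes called against wildtype were 0 for ApoE-KO, where Vegfa had an adjusted p of 0.0788, and 1 for ApoE-Stab1-KO, which was Sema5b (0.0263) in place of Vegfa (0.0605), and Cd36 was no longer called for ApoE-KO (0.07). The block changed no count of the 9 genes. With only the 2 groups compared, 0 pathway genes were called for ApoE-KO (Vegfa 0.0634) and 0 for ApoE-Stab1-KO (Vegfa 0.124), 1 of the 9 genes was called for ApoE-Stab1-KO (Sema3c 0.0537), and Cd36 was not called for ApoE-Stab1-KO (0.0855). With a fold of at least 1.5 as well, 1, 0 and 1 of the 9 genes and 0, 0 and 0 pathway genes were called for ApoE-KO, for ApoE-Stab1-KO and for ApoE-Stab2-KO against wildtype. Spearman's rho kept 4 of the 8 genes most like Sema3c and 4 of the 8 most like Sema3e. The r within groups kept 1 and 0. With 1 array left out, the calls ranged from 0 to 1 of the 9 genes for ApoE-Stab2-KO minus ApoE-KO (1 without ApoE-KO replicate 5), from 2 to 3 for ApoE-Stab1-KO against wildtype (3 without ApoE-Stab1-KO replicate 1) and from 2 to 3 by the F-test (3 without either array), from 0 to 1 pathway genes for ApoE-KO and from 0 to 2 for ApoE-Stab1-KO against wildtype, and from 0 to 1, 1 to 2 and 0 to 1 neighbours for ApoE-KO, for ApoE-Stab1-KO and for ApoE-Stab2-KO against wildtype. No called difference changed sign. The causes were not tested. Differences near the median SE of 0.07 could not be resolved. Larger ones were not always called either, such as -0.25 for Sema3a in ApoE-Stab2-KO minus ApoE-KO. Sema3d, Sema3b and Sema5b lay at or near background.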
